A study of Mus musculus with 24 samples.

Results

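TAZ-CAMTA1 is the fusion of the transcriptional coactivator TAZ (gene Wwtr1) with the calmodulin-binding transcription activator CAMTA1, found in epithelioid hemangioendothelioma, a vascular sarcoma. Here the 3 NIH 3T3 libraries titled TAZ-CAMTA1 were set against the 3 titled Empty Vector (EV), chosen by title, which makes 6 of the 24 libraries of the series. NIH 3T3 is an immortalized mouse embryonic fibroblast line. All lines of the series, controls included, were pooled stable lines made with the pBabeNeo retroviral vector and selected with G418, and each of the 3 replicates was a separate transduction. The fusion was a double-Flag-tagged human construct driven by the viral promoter, and the EV line carried the vector alone. EV was collected after 48 h at confluence, and a second control, sub-confluent EV, carried the empty vector and was titled sub-confluent. Whether it came from the same transductions as EV is not given in the sources used here. Other groups used here are TAZ4SA, a TAZ with 4 serines changed to alanine that LATS kinases can no longer phosphorylate, and YAP-TFE3, the fusion of the TAZ paralog YAP with the transcription factor TFE3. The growth protocol in the labels sets only the CAMTA1 line apart as sub-confluent, whereas the study's methods can be read as placing every line that holds CAMTA1 sequence there. TAZ-CAMTA1 was taken as 48 h confluent, following the growth protocol, and its titles do not state the density. Sub-confluent EV is given beside the main results and, for many of the lists, near the end.

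TAZ and YAP are coactivators that do not bind DNA on their own. They reach chromatin mainly through the TEAD factors, and in dense cultures the Hippo kinases LATS1 and LATS2 phosphorylate them, which keeps them in the cytoplasm. In the fusion the amino-terminal, TEAD-binding end of TAZ is joined to the carboxy-terminal part of CAMTA1, which brings its own nuclear localization signal. In fibroblasts TAZ and YAP are known for driving genes of matrix, adhesion, the actin cytoskeleton and proliferation.

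Of 14361 genes with a mean count of at least 5, 3088 passed at a false discovery rate of 0.05 (21.5%) between TAZ-CAMTA1 and EV, 1799 higher (12.5%) and 1289 lower (8.98%). These are the backgrounds against which every list below is read. Where no member of a list was called in a direction by edgeR, between 0 and 3 members had an unadjusted p under 0.05 there and DESeq2 called between 0 and 2. The rises were larger than the falls: of 1123 genes that passed and differed at least 2-fold (7.82%), 855 were higher (5.95%) and 268 lower (1.87%), and the median absolute log2 difference was 0.953 among the higher and 0.596 among the lower genes. The libraries held between 19981310 and 23923921 counts. Fewer genes passed without single libraries: 2031 without EV replicate 1, 2010 without EV replicate 3, 2028 without TAZ-CAMTA1 replicate 2 and 2045 without TAZ-CAMTA1 replicate 3. Between sub-confluent EV and EV 3173 genes passed (22.1%), with 12.5% higher and 9.59% lower, and TAZ-CAMTA1 differed from sub-confluent EV at 3068 (21.4%), 11.6% higher and 9.81% lower. Fibroblast markers summed to between 40337 and 45038 CPM (counts scaled to a common library size after TMM correction) in EV and between 41671 and 47462 in TAZ-CAMTA1. Endothelial markers summed to at most 26.27 CPM in TAZ-CAMTA1, with Tie1, Erg, Sox17 and Prox1 at 0, and of 7 tested Cdh5 rose (see the junction genes) and Lyve1 fell (log2 -1.44, adjusted p = 0.039), a call lost without any one of the 6 libraries (adjusted p from 0.0532 without EV replicate 3 to 0.133 without EV replicate 1). Myeloid markers summed to between 9.921 and 14.85 CPM in EV and between 57.48 and 62.23 in TAZ-CAMTA1. Of 10 tested, Lyz2, Ms4a4d and Cd14 rose and Trem2 fell (log2 -1.22, adjusted p = 0.0275, and 0.0708, 0.106, 0.13 and 0.0938 without EV replicate 1, EV replicate 3, TAZ-CAMTA1 replicate 1 and TAZ-CAMTA1 replicate 3), while Adgre1, Tyrobp and Ms4a7 were at 0. Lyz2, the macrophage lysozyme, was at 0.169, 0.382 and 0.619 CPM in the 3 EV libraries and at 24, 21 and 19.9 in the 3 TAZ-CAMTA1 libraries. In bulk libraries a change in the number of cells of a type and a change in RNA per cell cannot be told apart.

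**Figure D1:**
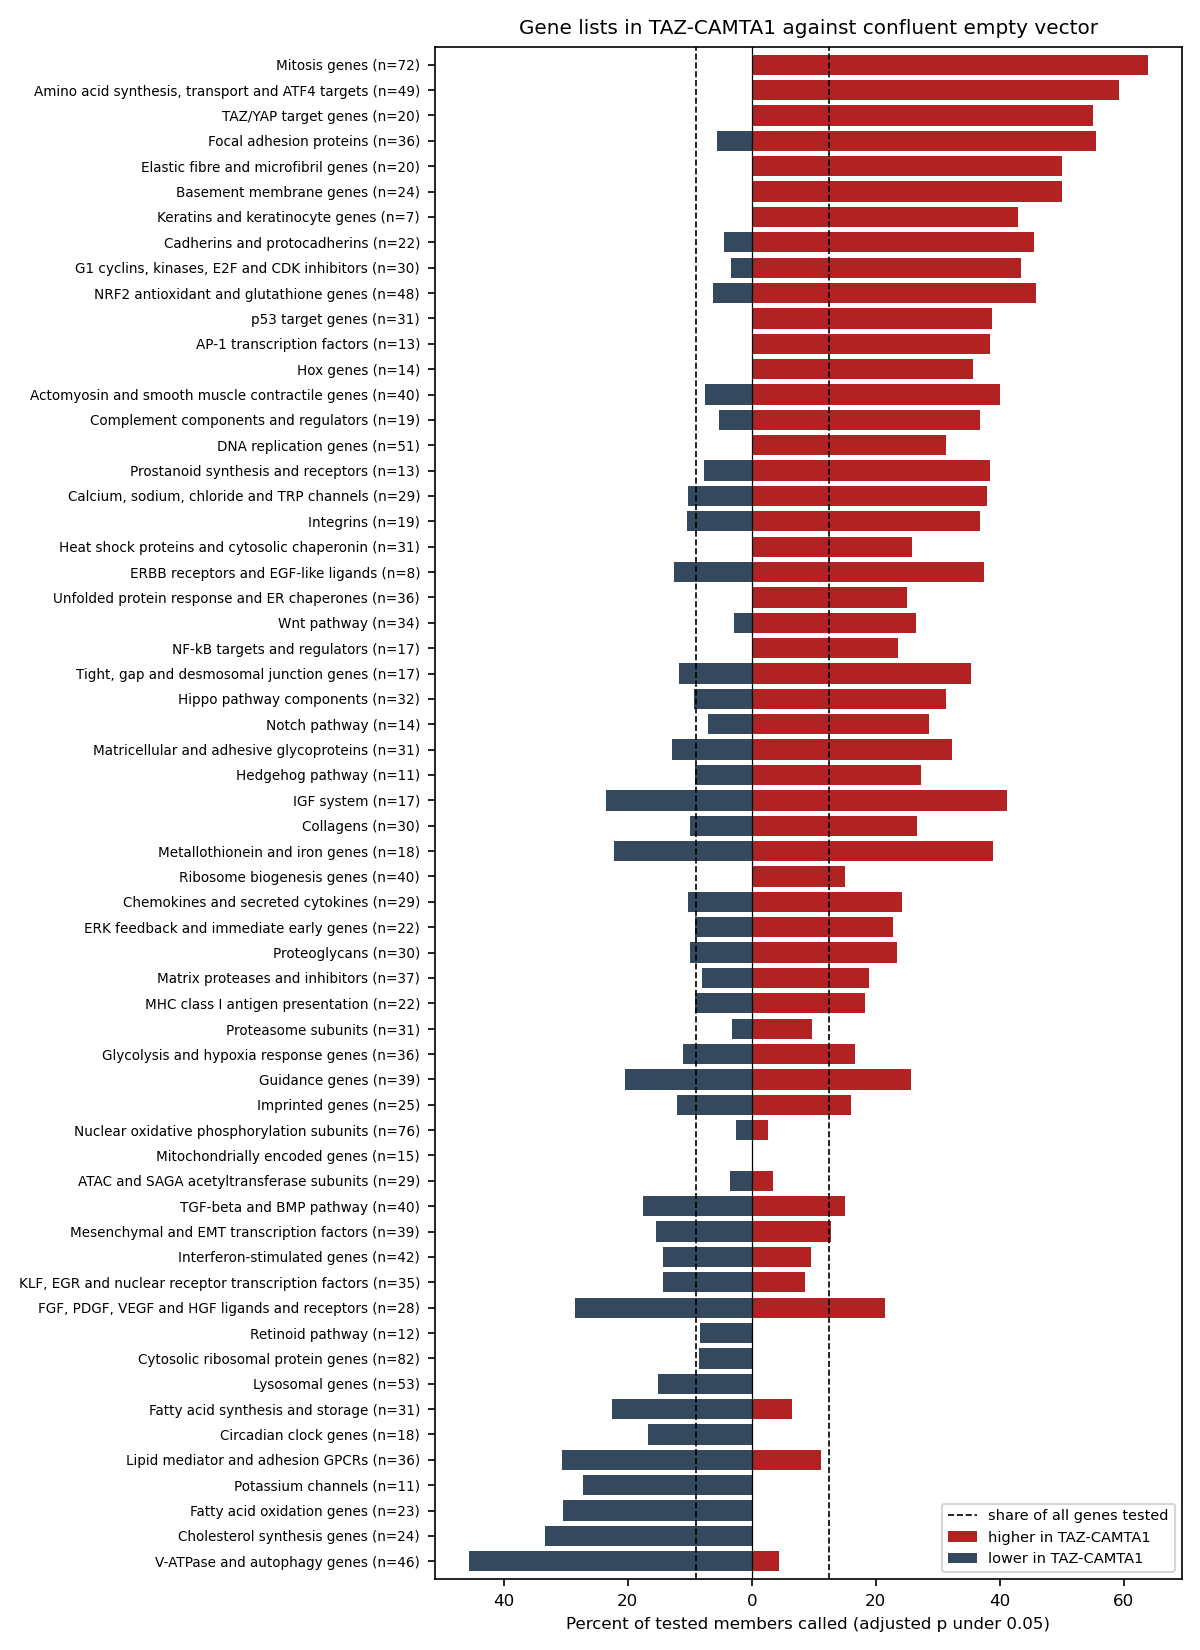
For each of 60 gene lists, the share of tested members called higher (right) and lower (left) in TAZ-CAMTA1 against EV, in percent, with the number tested after the name. Dashed lines mark the background over all tested genes, 12.5% higher and 8.98% lower.

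Of 35 genes, the largest rises and falls and the called TAZ/YAP targets, 25 had a promoter in the RefSeq table (GRCm38.p6) and 11 of these held the TEAD core motif in the 250 bases before the first start listed. Most of the 11 were known targets: Ccn1, Ankrd1, Ajuba, Amotl2, Ptpn14, Crim1 and Axl. Sh3tc1, Chst1 and Pdzd2 were from the largest rises and Scn7a from the largest falls. The share over all genes is given below for a longer window only, so the 11 of 25 has no background of its own. The candidates included published TAZ/YAP targets, so the count does not describe the largest rises and falls by themselves. The motif searched was GGAATG, or CATTCC on the other strand. The 6 with the largest rise are printed because they set 3 strongly induced genes beside 3 known targets, 5′ to 3′ on the gene's strand, with the motif in capitals. Sh3tc1 (chr5:35739988-35740237, minus strand), Chst1 (chr2:92600867-92601116, plus strand) and Pdzd2 (chr15:12739893-12740142, minus strand) are the large rises. Ccn1 (chr3:145649986-145650235, minus strand), Ankrd1 (chr19:36119845-36120094, minus strand) and Ajuba (chr14:54577662-54577911, minus strand) are the known targets.
Sh3tc1: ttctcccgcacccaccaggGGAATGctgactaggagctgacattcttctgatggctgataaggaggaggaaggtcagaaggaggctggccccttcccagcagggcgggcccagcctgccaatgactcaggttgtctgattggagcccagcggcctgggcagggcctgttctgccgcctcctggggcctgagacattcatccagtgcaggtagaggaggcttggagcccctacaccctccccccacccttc
Chst1: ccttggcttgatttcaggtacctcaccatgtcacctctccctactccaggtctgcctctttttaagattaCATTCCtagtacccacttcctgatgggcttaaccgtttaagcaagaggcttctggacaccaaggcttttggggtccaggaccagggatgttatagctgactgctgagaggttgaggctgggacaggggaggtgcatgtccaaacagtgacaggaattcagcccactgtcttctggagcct
Pdzd2: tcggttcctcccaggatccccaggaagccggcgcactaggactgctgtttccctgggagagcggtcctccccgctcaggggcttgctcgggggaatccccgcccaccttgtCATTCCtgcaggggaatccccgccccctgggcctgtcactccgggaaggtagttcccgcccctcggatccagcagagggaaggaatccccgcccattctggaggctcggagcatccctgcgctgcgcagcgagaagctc
Ccn1: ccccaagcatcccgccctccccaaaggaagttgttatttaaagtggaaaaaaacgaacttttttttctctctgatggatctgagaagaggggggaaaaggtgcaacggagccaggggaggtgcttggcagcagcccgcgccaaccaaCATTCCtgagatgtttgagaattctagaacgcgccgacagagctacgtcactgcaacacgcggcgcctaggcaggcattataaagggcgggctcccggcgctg
Ankrd1: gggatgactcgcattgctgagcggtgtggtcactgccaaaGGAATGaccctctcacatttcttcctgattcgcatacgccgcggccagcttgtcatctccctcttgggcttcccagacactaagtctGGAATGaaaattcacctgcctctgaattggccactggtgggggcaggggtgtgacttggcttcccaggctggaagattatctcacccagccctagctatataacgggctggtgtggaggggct
Ajuba: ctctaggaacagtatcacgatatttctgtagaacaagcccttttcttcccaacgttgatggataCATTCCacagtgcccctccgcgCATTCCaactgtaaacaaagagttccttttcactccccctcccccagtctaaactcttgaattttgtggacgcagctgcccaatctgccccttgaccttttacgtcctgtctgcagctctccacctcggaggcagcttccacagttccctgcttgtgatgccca

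The motif began 231, 180 and 139 bases before the start of Sh3tc1, Chst1 and Pdzd2, and 103 bases before that of Ccn1. Ankrd1 held it 210 and 123 bases upstream and Ajuba 186 and 164 bases upstream. In windows that also took in the 50 bases after the start, on either strand, the motif stood in 223 of 1346 windows of genes called higher (16.6%), in 119 of 998 of genes called lower (11.9%) and in 1243 of all 10200 (12.2%). Among the TAZ/YAP target list, which was assembled from published targets, it stood in 8 of 14 windows (57.1%). The AP-1 motif TGANTCA stood in 6.24% of windows of genes called higher, 5.91% of those called lower and 5.11% of all. The E-box CACGTG, which the TFE3 family and MYC bind, stood in 8.62%, 14.2% and 10.1% of the same windows, and the CAMTA core CGCGT in 33.2%, 35.8% and 36.6%. The motifs were counted separately, so that a base could fall in more than one of them. A match describes letters in a window and was not set against binding data.

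Of 20 tested TAZ/YAP target genes, 11 rose and none fell (1 fell without EV replicate 2 or TAZ-CAMTA1 replicate 1), and their median log2 difference was 0.56. Their summed level was 3264, 3261 and 3337 CPM in EV, 4303, 4808 and 4992 in TAZ-CAMTA1 and 4138, 4009 and 3455 in sub-confluent EV. The TAZ-CAMTA1 sums were thus all above the EV sums, and all above the sub-confluent ones as well. Ccn1 (chr3:145646976-145649981), a secreted matricellular protein and a standard readout of TEAD activity, was at 42.9, 63.8 and 61.5 CPM in EV and at 246, 303 and 421 in TAZ-CAMTA1 (log2 difference 2.53 ± 0.38 SE, adjusted p = 4.21e-05). It stood at 224, 203 and 57.6 CPM in sub-confluent EV, and the difference from that control did not pass (log2 1.00, adjusted p = 0.0511). Ankrd1 (chr19:36111961-36120099), a titin-associated ankyrin repeat protein, showed the same order, with 15.7, 31.5 and 18.6 CPM in EV and 71.8, 102 and 104 in TAZ-CAMTA1 (log2 2.08 ± 0.32, adjusted p = 5.41e-05). Ccn2, the third classical readout, was at 14.6, 18.3 and 19.9 CPM in EV and 29.9, 34.9 and 39.8 in TAZ-CAMTA1, and did not pass (log2 0.99 ± 0.39, adjusted p = 0.0781). Its ranges did not overlap, but 23.1% of all tested genes were likewise higher in every TAZ-CAMTA1 library than in any EV library. Sub-confluent EV had more Ccn2 than TAZ-CAMTA1, at 143, 129 and 37.7 CPM (log2 -1.57 for TAZ-CAMTA1 against sub-confluent EV, adjusted p = 0.00561).

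In sub-confluent EV against EV 7 of the 20 targets were higher and 5 lower. Ajuba (chr14:54567472-54577558), a LIM protein that holds LATS kinases at junctions, was at 43.7, 37.4 and 49.5 CPM in EV, at 112, 135 and 133 in TAZ-CAMTA1 and at 55.3, 47.2 and 46.8 in sub-confluent EV. Its TAZ-CAMTA1 values lay above both controls (log2 1.54 against EV, adjusted p = 2.27e-08, and 1.35 against sub-confluent EV, adjusted p = 1.43e-07). Lats2, the Hippo kinase that is itself a TEAD target, rose to between 115 and 136 CPM from between 52 and 59.2 (log2 1.17 ± 0.14), and was no higher in sub-confluent EV (40.8 to 48.7 CPM). Amotl2 (log2 0.95), Nuak2 (1.13), Ptpn14 (0.86) and Myof (0.81) rose as well, and of these Amotl2 (log2 0.64, adjusted p = 0.00526), Nuak2 (0.54, adjusted p = 0.0282) and Myof (0.53, adjusted p = 0.00762) were also higher in sub-confluent EV than in EV. Axl (adjusted p = 0.112 without EV replicate 1, 0.103 without EV replicate 2, 0.108 without EV replicate 3, 0.142 without TAZ-CAMTA1 replicate 2 and 0.157 without TAZ-CAMTA1 replicate 3), Crim1 (0.0577 without EV replicate 1) and Arhgef17 (0.0727, 0.141, 0.111 and 0.128 without EV replicate 1, EV replicate 2, TAZ-CAMTA1 replicate 2 and TAZ-CAMTA1 replicate 3) were the 3 further calls and rested on single libraries. Asap1, Dock5, F3, Fjx1, Foxf2, Gadd45a, Rbms3 and Tgfb2 did not pass, with log2 differences from -0.57 for Fjx1 to 0.10 for Gadd45a. Igfbp3 and Nt5e were too low to be tested.

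**Figure D2:**
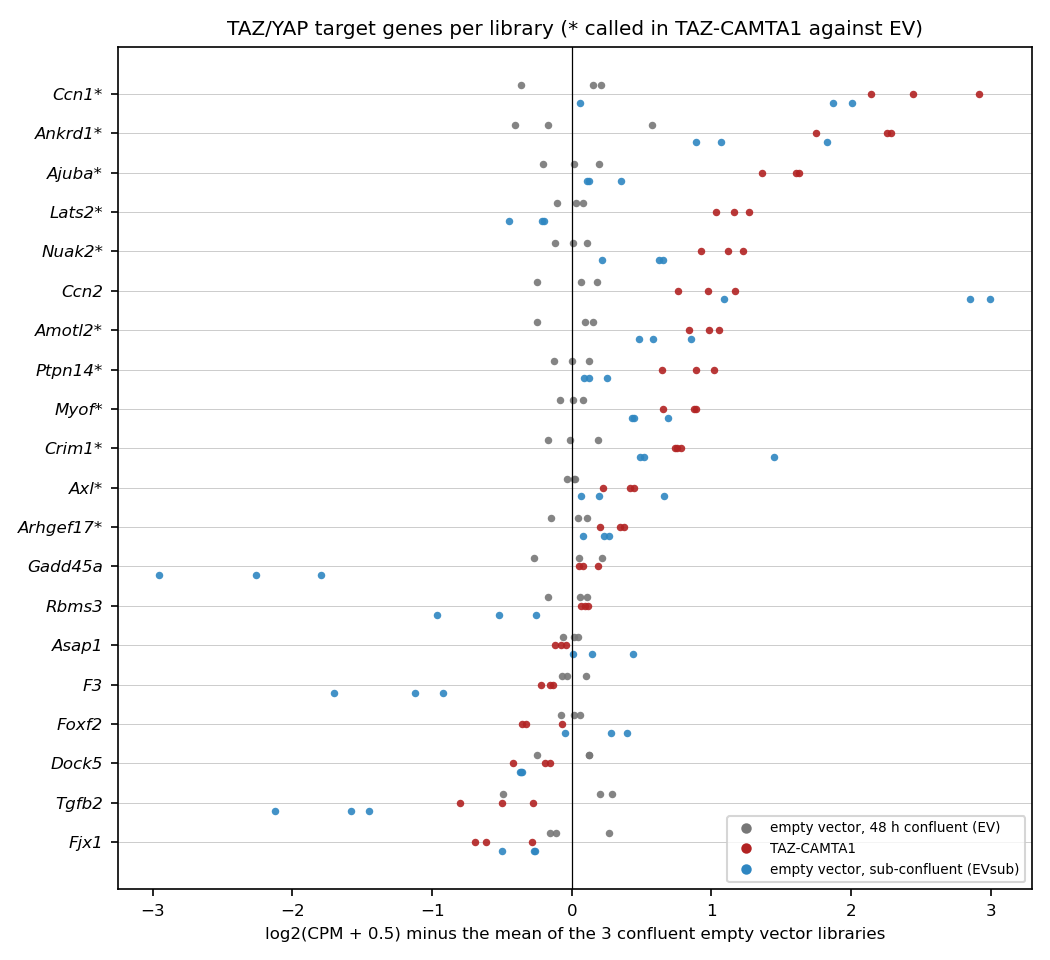
The 20 tested TAZ/YAP target genes, each library drawn as log2(CPM + 0.5) minus the EV mean, for EV, TAZ-CAMTA1 and sub-confluent EV; asterisks mark genes called between TAZ-CAMTA1 and EV. Ccn1 and Ankrd1 show the largest differences of TAZ-CAMTA1 from EV, and Ccn2 is higher in sub-confluent EV than in TAZ-CAMTA1.

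Among 32 tested Hippo pathway components 10 rose and 3 fell. Inhibitory members were on both sides: Wwc1, the kinase activator KIBRA, rose from 12.7, 14.2 and 14.5 to 35.4, 42 and 38.5 CPM (log2 1.48 ± 0.20, adjusted p = 1.33e-05), while Amot, which anchors YAP at junctions, fell from 276, 222 and 306 to 131, 133 and 112 CPM (log2 -1.09 ± 0.12, adjusted p = 1.25e-06), with 160, 161 and 183 in sub-confluent EV. The TEAD factors moved unequally. Tead1 rose from 171, 161 and 160 to 278, 342 and 356 CPM (log2 0.99 ± 0.12, adjusted p = 2.02e-06), Tead2 fell from between 101 and 135 to between 71 and 78.8 CPM (log2 -0.71, adjusted p = 0.00393), and Tead3 (log2 -0.02) and Tead4 (0.34, adjusted p = 0.144) did not pass. Sub-confluent EV had EV-like Tead1 (178, 149 and 158 CPM). Endogenous mouse Camta1 was at 4.35 to 5.02 CPM in TAZ-CAMTA1 and 4.82 to 4.87 in EV and did not pass (adjusted p = 0.85), and a human construct would reach these mouse counts only in part.

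The largest rises came from genes that were almost unread in EV. Ptprt (chr2:161521990-162661147), a receptor tyrosine phosphatase, had no count in the 3 EV or the 3 sub-confluent EV libraries and stood at 5.38, 7.69 and 5.87 CPM in TAZ-CAMTA1, at least 47.0-fold higher against a floor of 3 counts per library. Lamb3 (chr1:193207699-193343878), the beta chain of laminin-332, likewise had no count in EV and reached 5.78, 4.75 and 4.67 CPM, at least 37.8-fold higher. It overlaps G0s2 and Hsd11b1 on the opposite strand, and whether the counting used strand is not given in the sources used here. The ratio of summed counts, with a 95% interval that covers counting error only, was 490 (135 to 4050) for Sh3tc1 (chr5:35697180-35739987), an SH3 and tetratricopeptide repeat protein. It was 555 (99.2 to 21955) for Psca, a GPI-anchored surface protein, 401 (71.6 to 15879) for Slc2a5, the fructose transporter GLUT5, and 392 (69.9 to 15506) for Chst1, a carbohydrate sulfotransferase. Spo11, the endonuclease that opens meiotic recombination, had a ratio of 295 (52.6 to 11704) and Vnn1, a pantetheinase, of 243 (82.9 to 1182).

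Genes with a measurable EV level rose strongly too. Serpinb9b, an intracellular serine protease inhibitor with close paralogs that may share its reads, was at 1.94, 3.34 and 1.64 CPM in EV and 111, 169 and 163 in TAZ-CAMTA1 (log2 6.01 ± 0.51, adjusted p = 2.58e-08). Pdzd2 (chr15:12359711-12739924), a multi-PDZ scaffold, went from 0.296, 0.668 and 0.575 to 29.9, 43.2 and 47 CPM (log2 6.29 ± 0.53), and Synpo2l, an actin-binding protein of the muscle Z-disc, from at most 0.338 to between 11.1 and 18 CPM (log2 6.09 ± 0.58). Nes, the intermediate filament protein nestin, went from at most 0.668 to between 14.4 and 26.5 CPM (log2 5.98 ± 0.54). In all of these genes the lowest TAZ-CAMTA1 library also lay above the highest sub-confluent EV library, whereas its place above EV was part of how they were chosen. The direct contrast with TAZ4SA divided them: Serpinb9b (log2 0.10, adjusted p = 0.841) and Pdzd2 (0.57, adjusted p = 0.202) did not differ detectably, whereas Synpo2l (4.0, adjusted p = 7.72e-07), Vnn1 (3.15, adjusted p = 3.2e-06) and Lamb3 (2.61, adjusted p = 1.41e-05) were higher in TAZ-CAMTA1. Ptprt was highest in YAP-TFE3, with a mean of 23.9 CPM (log2 -1.92 for TAZ-CAMTA1 against YAP-TFE3, adjusted p = 0.000201).

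**Figure D3:**
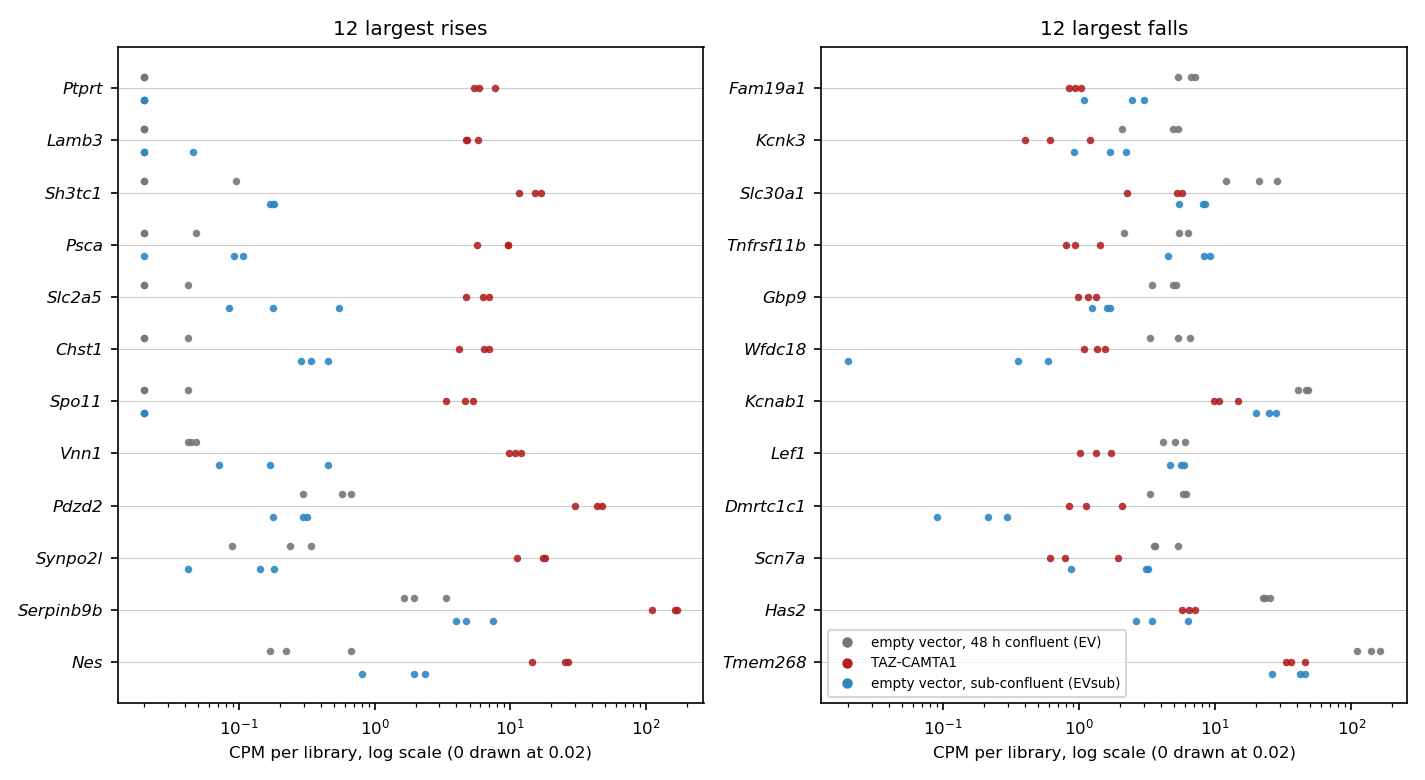
CPM per library on a log axis (0 drawn at 0.02) for the 12 largest rises and 12 largest falls in TAZ-CAMTA1 against EV, with sub-confluent EV beside them. Most rises start near 0 in both controls, whereas several falling genes are also low in sub-confluent EV.

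The falls were smaller and fewer. Fam19a1, a secreted chemokine-like neuropeptide, went from 7.09, 5.35 and 6.64 CPM in EV to 0.930, 0.838 and 1.04 in TAZ-CAMTA1 (log2 -2.76 ± 0.43, adjusted p = 7.2e-05). Kcnk3, a background potassium channel, fell to between 0.399 and 1.21 from between 2.05 and 5.36 CPM (log2 -2.47). Slc30a1, the zinc exporter ZnT1 of the plasma membrane, was at 11.9, 21 and 28.4 CPM in EV and at 5.74, 5.22 and 2.24 in TAZ-CAMTA1 (log2 -2.22 ± 0.35, adjusted p = 7.57e-05). Several of these genes were low in sub-confluent EV as well. Tmem268 was at 45.9, 35.9 and 32.8 CPM in TAZ-CAMTA1 and at 26.1, 45.8 and 41.7 in sub-confluent EV against 140, 109 and 163 in EV, and Has2, a hyaluronan synthase, at 5.74 to 7.11 and 2.60 to 6.34 against 22.5 to 25.4. By contrast Lef1, the nuclear partner of beta-catenin, was at 5.95, 4.15 and 5.04 CPM in EV, 5.60, 5.84 and 4.61 in sub-confluent EV and 1.70, 1.02 and 1.32 in TAZ-CAMTA1, below both controls (log2 -1.90 ± 0.26 against EV and -1.98 against sub-confluent EV, adjusted p = 8.96e-06). Tnfrsf11b, the decoy receptor osteoprotegerin, fell by 2.14 on the log2 scale and Scn7a, a sodium channel, by 1.89. Gbp9, a guanylate-binding protein that overlaps Gbp4 and Gbp8 and is uncertain for that reason, fell by 1.95.

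Matrix genes of the basement membrane rose together. Of 24 tested, 12 rose and none fell (median log2 0.65), and against sub-confluent EV 15 were higher and 1 lower. The summed level was 4767, 5217 and 5081 CPM in EV, 6509, 6711 and 7931 in TAZ-CAMTA1 and 3510, 5106 and 3985 in sub-confluent EV, so TAZ-CAMTA1 lay above both controls. Beside Lamb3, Lamc3, a laminin gamma chain, went from 0.0844, 0.430 and 0.0442 to 2.95, 4.52 and 4.71 CPM (log2 4.46 ± 0.49, adjusted p = 7.24e-07). Lama5, the alpha chain of laminin-511, also named after its values were seen, went from at most 0.760 to between 3.84 and 5.55 CPM (log2 2.67, adjusted p = 4.92e-05) and was far higher in TAZ4SA, with a mean of 45.8 CPM. Fras1, which anchors epithelial basement membranes, had no count in EV and at most 0.186 CPM in TAZ-CAMTA1 and did not pass (adjusted p = 0.158), whereas YAP-TFE3 had a mean of 8.95 CPM. Among network collagens Col4a5, an alpha chain of type IV collagen, rose from 219, 210 and 210 to 479, 531 and 576 CPM (log2 1.31 ± 0.12, adjusted p = 8.74e-08). Col12a1, a fibril-associated collagen, rose from between 41.7 and 45.8 to between 112 and 127 CPM (log2 1.44 ± 0.13). Over all 30 tested collagens 8 rose and 3 fell, with 5 higher without TAZ-CAMTA1 replicate 3 and 1 lower without EV replicate 2, EV replicate 3, TAZ-CAMTA1 replicate 2 or TAZ-CAMTA1 replicate 3.

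Of 20 elastic fibre and microfibril genes 10 rose and none fell (median log2 0.50). Their sum was 7312, 8650 and 7833 CPM in EV, 10050, 8960 and 9063 in TAZ-CAMTA1 and 8145, 8221 and 9922 in sub-confluent EV, which overlapped TAZ-CAMTA1. Loxl4, a lysyl oxidase that cross-links elastin and collagen, was at 7.13, 8.12 and 6.68 CPM in EV, 46.8, 64.5 and 63.6 in TAZ-CAMTA1 and 28.4, 17.8 and 16.9 in sub-confluent EV (log2 3.00 ± 0.24, adjusted p = 1.5e-08). Fbln1, the microfibril glycoprotein fibulin-1, went from 0.253, 1.81 and 0.487 to 5.91, 8.38 and 8.86 CPM (log2 3.20 ± 0.49), while sub-confluent EV stayed at 0.273 to 0.845 CPM. Of 37 tested matrix proteases and their inhibitors 7 rose and 3 fell (1 fell without EV replicate 3, TAZ-CAMTA1 replicate 2 or TAZ-CAMTA1 replicate 3). The rises were 18.9% of the list against 12.5% of all genes, and the falls 8.11% against 8.98%. Adamtsl1, an ADAMTS-like matrix glycoprotein, rose from at most 0.573 to between 9.27 and 10.2 CPM (log2 4.57 ± 0.41), against at most 0.784 in sub-confluent EV. Plaur, the urokinase receptor, rose from 5.45, 7.83 and 6.99 to 32.5, 54 and 48.7 CPM (log2 2.74 ± 0.26). Edil3, an integrin-binding matrix protein, fell from 134, 53.1 and 128 to 43.2, 32.7 and 30.3 CPM (log2 -1.57 ± 0.28), with 17.8 to 32.6 in sub-confluent EV. Sdc3, a heparan sulfate proteoglycan of the syndecan family, fell by 1.11 on the log2 scale. Their lists had more rises than falls. Matricellular and adhesive glycoproteins, which include Edil3, had 10 of 31 higher and 4 lower (8 to 10 and 2 to 6 as single libraries were left out). Proteoglycans, which include Sdc3, had 7 of 30 higher and 3 lower (5 to 9 and 1 to 3).

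Of 19 tested integrin genes 7 rose and 2 fell. Itga3 (chr11:95044474-95076801), the alpha subunit that binds laminin-332, was at 15.5, 15.6 and 16.6 CPM in EV, 189, 273 and 286 in TAZ-CAMTA1 and 46.3, 33.1 and 33.1 in sub-confluent EV (log2 3.97 ± 0.25, adjusted p = 1.28e-09). It was also above sub-confluent EV (log2 2.74, adjusted p = 3.95e-08), TAZ4SA (0.87, adjusted p = 0.00232) and YAP-TFE3 (1.46, adjusted p = 0.000123). Itga1, a collagen-binding alpha subunit, rose from 0.464, 0.764 and 0.575 to 4.81, 4.10 and 3.91 CPM (log2 2.83 ± 0.36). The laminin-binding subunits Itga6, Itga7 and Itgb4, and Itgb1, which pairs with many alpha subunits, named here after their values were seen, were also among the risers. Itga6 went from 33, 33.6 and 29.8 to 80.3, 108 and 125 CPM (log2 1.70, adjusted p = 1.57e-07), Itga7 from between 3.04 and 4.49 to between 16.7 and 18.7 CPM (log2 2.26) and Itgb4, the partner of Itga6 in hemidesmosomes, from between 0.716 and 1.02 to between 3.92 and 4.33 CPM (log2 2.22). All 3 were above sub-confluent EV as well (adjusted p = 2.1e-05, 1.39e-05 and 2.61e-05). The fallers were Itgbl1 (log2 -0.97, adjusted p = 0.00725), which was at 62.3 to 162 CPM in sub-confluent EV and 113 to 170 in TAZ-CAMTA1, and Itgb5, whose call rested on single libraries (adjusted p = 0.0304, and 0.111, 0.0712, 0.151 and 0.184 without EV replicate 2, EV replicate 3, TAZ-CAMTA1 replicate 2 and TAZ-CAMTA1 replicate 3).

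**Figure D4:**
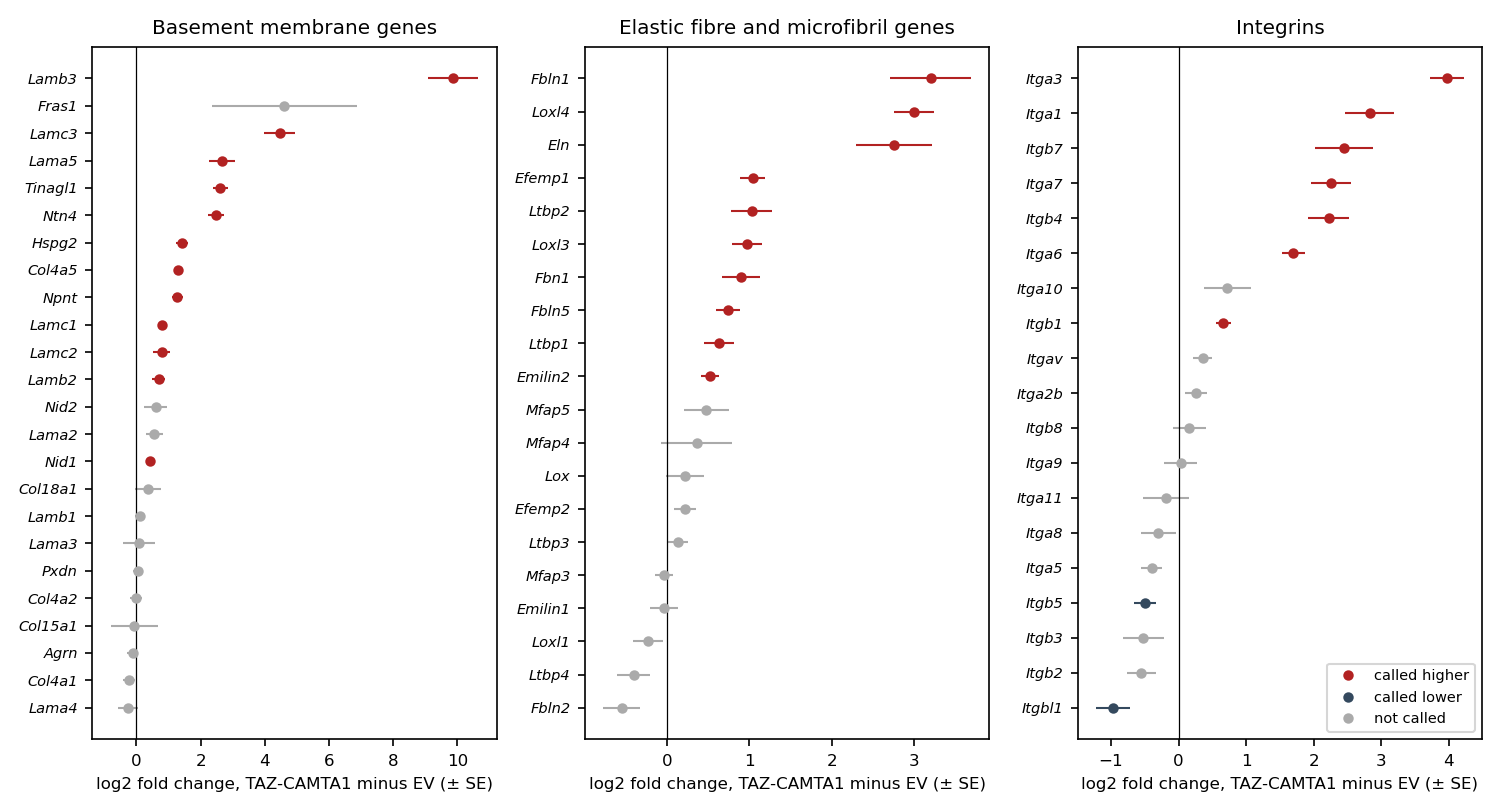
Log2 difference of TAZ-CAMTA1 minus EV with its standard error for the tested basement membrane, elastic fibre and integrin genes; red marks genes called higher, dark genes called lower and grey those not called. Among the basement membrane genes 12 of 24 are red and none is dark.

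Genes of the adhesion sites that couple integrins to actin rose with them. Of 36 tested focal adhesion genes 20 rose and 2 fell (median log2 0.49), and their sum was 5378, 5073 and 5408 CPM in EV against 7039, 8176 and 8096 in TAZ-CAMTA1. Sub-confluent EV, at 6918, 7333 and 6746 CPM, lay above EV and overlapped TAZ-CAMTA1. Pdlim1, a PDZ and LIM protein of stress fibres, rose from 11.8, 15 and 9.07 to 51.7, 65.3 and 67.3 CPM (log2 2.36 ± 0.19, adjusted p = 1.5e-08), with 54, 44.9 and 40.3 in sub-confluent EV. Parvb, beta-parvin, and Pdlim5 fell by 0.47 and 0.54 on the log2 scale. Actomyosin and smooth muscle contractile genes gave 16 higher and 3 lower of 40. Acta2, smooth muscle actin, rose from 321, 212 and 317 to 589, 623 and 479 CPM (log2 0.99 ± 0.22, adjusted p = 0.00233), but stood at 745, 1141 and 600 CPM in sub-confluent EV. Csrp2, a LIM protein of smooth muscle, fell from between 50.3 and 101 to between 29.6 and 32.8 CPM (log2 -1.39).

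Cell junction genes rose from low levels. Among 22 tested cadherins and protocadherins 10 rose and 1 fell, Pcdh18, which went from between 137 and 150 to between 67.7 and 75.1 CPM (log2 -1.04 ± 0.12, adjusted p = 2.02e-06). Cdh5, the vascular endothelial cadherin, had 1 count in all EV libraries together and stood at 1.33, 2.05 and 1.64 CPM in TAZ-CAMTA1, a ratio of 111 (19.6 to 4435). It stayed at most 0.0845 CPM in sub-confluent EV. Of the 20 endothelial markers listed, Tie1, Erg, Sox17 and Prox1 had no count in EV or TAZ-CAMTA1. The list summed to between 22.25 and 25.78 CPM in EV and between 20.75 and 26.27 in TAZ-CAMTA1. Of 17 tight, gap and desmosomal junction genes 6 rose. Pkp2, plakophilin-2 of desmosomes, rose from 0.549, 0.907 and 1.06 to 17.3, 22.6 and 24.4 CPM (log2 4.67 ± 0.29, adjusted p = 1.28e-09). Gja1, the gap junction protein connexin 43, rose from 5.99, 13.3 and 5.97 to 56.6, 85.5 and 96 CPM (log2 3.24 ± 0.33, adjusted p = 2.34e-07), with 48.1, 50.6 and 22.7 in sub-confluent EV.

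Growth factor and receptor genes changed in both directions. Of 8 tested ERBB receptors and EGF-like ligands 3 rose and 1 fell. Erbb3 (chr10:128567523-128589652), a receptor that signals through its partners, was at 0.549, 0 and 0.0885 CPM in EV, 0.273, 0.0356 and 0.127 in sub-confluent EV and 6.92, 6.71 and 10.4 in TAZ-CAMTA1 (log2 5.15 ± 0.57, adjusted p = 8.21e-07). Ereg, the ligand epiregulin, rose from 2.24, 5.83 and 3.50 to 32.5, 45.8 and 47.8 CPM (log2 3.45 ± 0.38, adjusted p = 8.69e-07). A second ligand went the other way: Btc, betacellulin, fell from at most 0.716 to at most 0.160 CPM (log2 -2.23, adjusted p = 0.00415). In the IGF system 7 of 17 rose and 4 fell (2 fell without EV replicate 3 or TAZ-CAMTA1 replicate 3). The binding protein Igfbp6 rose from 91.9, 116 and 88.6 to 450, 505 and 460 CPM (log2 2.25 ± 0.19). A second one, Igfbp5, rose from 4.35, 12.3 and 6.42 to 55.7, 29 and 35.7 CPM (log2 2.39 ± 0.35), while it nearly vanished in sub-confluent EV, at 0, 0.356 and 0.0845. Irs1, the adaptor of insulin and IGF receptors, fell from between 55.1 and 65.5 to between 25.4 and 30.5 CPM (log2 -1.10 ± 0.20).

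The FGF, PDGF, VEGF and HGF list had 6 of 28 higher and 8 lower (5 lower without EV replicate 3 and 4 without TAZ-CAMTA1 replicate 3). Fgf21, a stress-induced hormone, rose from at most 0.286 to between 1.13 and 1.72 CPM (log2 3.90 ± 0.85, adjusted p = 0.00227). In the Wnt pathway 9 of 34 rose and 1, Lef1, fell (2 without TAZ-CAMTA1 replicate 1). Wnt7a, a ligand, had no count in EV and reached 0.324, 0.233 and 0.359 CPM, at least 2.27-fold higher, and Fzd4, a receptor, rose from between 10.8 and 14.6 to between 25.6 and 34.8 CPM (log2 1.30 ± 0.27). The TGF-beta and BMP list had 6 higher and 7 lower of 40 (3, 4 and 3 lower without EV replicate 3, TAZ-CAMTA1 replicate 2 and TAZ-CAMTA1 replicate 3). The ligand Tgfb1 fell from 40.3, 39.6 and 44.2 to 22.6, 17.2 and 16.9 CPM (log2 -1.13 ± 0.24).

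Guidance genes, which steer cell contact and migration, had 10 of 39 higher and 8 lower. Epha2, an ephrin receptor, rose from 12.7, 17.9 and 12.9 to 79.5, 110 and 119 CPM (log2 2.83 ± 0.29, adjusted p = 2.34e-07). Slit2, a repulsive ligand, fell from 124, 184 and 144 to 57.6, 54.4 and 61.7 CPM against 147, 151 and 162 in sub-confluent EV (log2 -1.38 ± 0.17 against EV and -1.40 against sub-confluent EV). It was also below TAZ4SA (log2 -1.26, adjusted p = 2.5e-06) and YAP-TFE3 (-1.13, adjusted p = 8.17e-05).

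AP-1 and immediate early genes lie downstream of growth factor signalling, and AP-1 and TEAD factors are known to share enhancers. Of 13 tested AP-1 genes 5 rose and none fell. Fosl1 rose from 8.53, 18 and 10.9 to 29.4, 50.3 and 49.3 CPM (log2 1.79 ± 0.31) and was as high in sub-confluent EV, at 37.8, 51.1 and 22.4. Atf3 rose from 5.32, 3.92 and 5.04 to 14.4, 17.8 and 15.7 CPM (log2 1.74 ± 0.18, adjusted p = 3.81e-07) and was below EV in the sub-confluent line, at 2.53 to 3.38. Dusp1, a phosphatase of MAP kinases, rose by 1.60 and Phlda1 by 1.22 on the log2 scale, while Egr2, an immediate early zinc finger factor, fell from 15.5, 12.7 and 12.6 to 4.21, 3.26 and 5.95 CPM (log2 -1.60 ± 0.28).

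**Figure D5:**
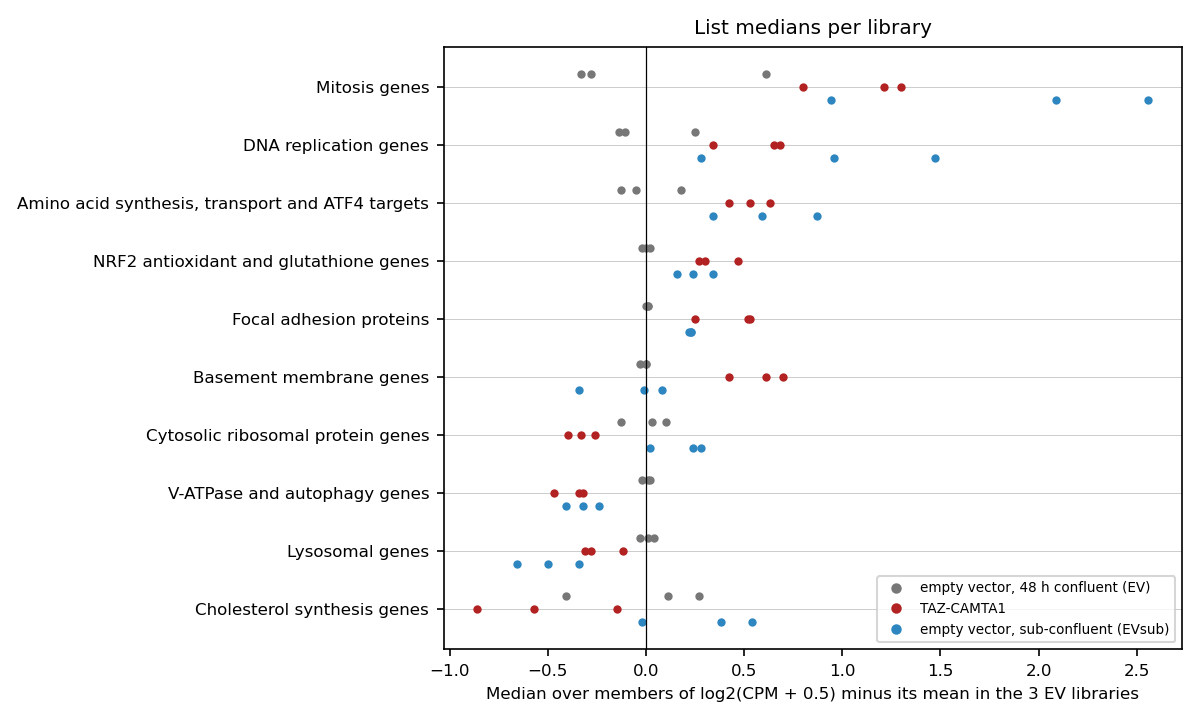
For 10 lists, the median over tested members of log2(CPM + 0.5) minus the EV mean, 1 point per library of EV, TAZ-CAMTA1 and sub-confluent EV. Mitosis and DNA replication genes are highest in 2 sub-confluent EV libraries, and basement membrane genes in TAZ-CAMTA1.

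Many cell cycle genes rose in TAZ-CAMTA1, and more of them in the sub-confluent control. Of 72 tested mitosis genes 46 rose and none fell (median log2 1.09), but 15 rose without EV replicate 1, 15 without EV replicate 3, 22 without TAZ-CAMTA1 replicate 2 and 21 without TAZ-CAMTA1 replicate 3. Their sum was 1211, 2337 and 1273 CPM in EV, 2709, 3658 and 3987 in TAZ-CAMTA1 and 5990, 8459 and 2821 in sub-confluent EV. EV replicate 2 lay above the other EV libraries and sub-confluent EV replicate 3 below the other sub-confluent ones. Against sub-confluent EV, none of these genes was higher in TAZ-CAMTA1 and 34 were lower, and 70 rose in sub-confluent EV against EV. Anln, the actin-binding anillin of the cleavage furrow, was at 35, 82.3 and 36.6 CPM in EV, 167, 240 and 274 in TAZ-CAMTA1 and 221, 293 and 102 in sub-confluent EV (log2 2.15 ± 0.34). Ect2, the exchange factor that starts cytokinesis, had the same shape (log2 1.80 ± 0.38). DNA replication genes gave 16 of 51 higher and none lower, with 5, 8, 8 and 10 higher without EV replicate 1, EV replicate 3, TAZ-CAMTA1 replicate 2 and TAZ-CAMTA1 replicate 3 and 25 without EV replicate 2. Rrm2, a subunit of ribonucleotide reductase, rose from 17.6, 43.1 and 21.6 to 68.7, 98.3 and 94.4 CPM (log2 1.67 ± 0.38), near the 89.5, 147 and 39 of sub-confluent EV (log2 -0.08, adjusted p = 0.912).

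Of 30 tested G1 regulators 13 rose and 1 fell, Rbl2, whose call rested on single libraries while 2 fell without EV replicate 2 (Rbl2 adjusted p = 0.0281, and 0.0697, 0.0878, 0.136 and 0.126 without EV replicate 1, EV replicate 3, TAZ-CAMTA1 replicate 2 and TAZ-CAMTA1 replicate 3). Ccnd1 (chr7:144929931-144939925), cyclin D1, was at 38.3, 78.9 and 46.3 CPM in EV, 141, 155 and 76.1 in sub-confluent EV and 289, 426 and 412 in TAZ-CAMTA1 (log2 2.79 ± 0.37, adjusted p = 9.29e-06). It was above sub-confluent EV (log2 1.60, adjusted p = 0.00238), TAZ4SA (2.33, adjusted p = 1.69e-05) and YAP-TFE3 (2.84, adjusted p = 1.88e-05), whose means were 74.4 and 52.5 CPM. E2f7, an E2F that represses the S-phase programme, rose from 4.43, 12.8 and 5.31 to 27.5, 38.5 and 39.8 CPM (log2 2.23 ± 0.38), as in sub-confluent EV (29.2, 38.3 and 11.6). Among 31 p53 target genes 12 rose and none fell, led by Eda2r, a receptor of the TNF receptor family, from between 4.34 and 8.45 to between 26.5 and 35.3 CPM (log2 2.19 ± 0.25).

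Amino acid genes, many of them targets of the stress factor ATF4, rose widely: 29 of 49 and none lower (median log2 0.55). Sub-confluent EV had a like median (0.58). The sum was 5118, 6390 and 5515 CPM in EV and 7413, 8671 and 8099 in TAZ-CAMTA1. Cth (chr3:157894248-157925077), which makes cysteine by transsulfuration, was at 0.718, 2.48 and 1.19 CPM in EV, 4.46, 5.27 and 2.37 in sub-confluent EV and 24.5, 38.1 and 37.4 in TAZ-CAMTA1 (log2 4.52 ± 0.61, adjusted p = 1.17e-05). Chac1, which degrades glutathione, rose from 9.37, 12.4 and 13.2 to 61.3, 104 and 75.4 CPM (log2 2.79 ± 0.21, adjusted p = 7.99e-09). Both were above sub-confluent EV (log2 3.04, adjusted p = 0.000338 for Cth, and 1.80, adjusted p = 1.3e-06 for Chac1). NRF2 antioxidant and glutathione genes gave 22 of 48 higher and 3 lower. Sod3, the extracellular superoxide dismutase, rose from 1.10, 2.58 and 0.973 to 19.9, 19.7 and 18 CPM (log2 3.64 ± 0.45).

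Folding genes changed less evenly. The unfolded protein response list had 9 of 36 higher, a count that went to 3, 3, 4 and 3 without EV replicate 1, EV replicate 3, TAZ-CAMTA1 replicate 2 and TAZ-CAMTA1 replicate 3. Serpinh1, the collagen chaperone HSP47, rose from 620, 792 and 636 to 1082, 1202 and 1219 CPM (log2 0.77 ± 0.17). Of 31 heat shock and chaperonin genes 8 rose. Cryab, the small heat shock protein alpha-B crystallin, rose from 122, 117 and 117 to 446, 483 and 430 CPM (log2 1.93 ± 0.22, adjusted p = 1.27e-06) with no difference seen in sub-confluent EV, at 105, 123 and 128. Cryab overlaps Hspb2 on the opposite strand, and Hspb2 rose too, at a level of 1.29 to 2.04 CPM.

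Among genes of acidic organelles and of lipid metabolism more fell than rose. Of 46 V-ATPase and autophagy genes 21 fell and 2 rose (median log2 -0.38), with 10 lower without EV replicate 3 and 10 without TAZ-CAMTA1 replicate 3. The sum went from 6837, 6573 and 6918 CPM to 5398, 5240 and 4733, and sub-confluent EV was at 5063, 5128 and 5790. Atp6v1b2, a V1 subunit of the proton pump, fell from 266, 343 and 298 to 151, 152 and 124 CPM (log2 -1.09 ± 0.17, adjusted p = 7.9e-05). Fnip2, a folliculin partner, fell by 0.97 on the log2 scale, and Optn, an autophagy receptor, rose by 0.83. The other riser, Uvrag, did not hold without single libraries (adjusted p = 0.119, 0.057, 0.078, 0.0609 and 0.172 without EV replicate 1, EV replicate 2, EV replicate 3, TAZ-CAMTA1 replicate 1 and TAZ-CAMTA1 replicate 2). Of 53 lysosomal genes 8 fell and none rose (1 rose without EV replicate 2), with 5, 4, 2 and 2 lower without EV replicate 1, EV replicate 3, TAZ-CAMTA1 replicate 2 and TAZ-CAMTA1 replicate 3, but 12 with DESeq2's size factors, 16 with DESeq2 and 20 when only the 2 groups entered the fit. Sub-confluent EV had 32 lower than EV. Gla (chrX:134588149-134601125), alpha-galactosidase A, fell from 182, 208 and 201 to 71.1, 67.5 and 53.9 CPM (log2 -1.62 ± 0.18, adjusted p = 1.24e-06), with 72.3, 92.2 and 92.6 in sub-confluent EV.

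Among cholesterol synthesis genes 8 of 24 fell and none rose (1 rose without TAZ-CAMTA1 replicate 1, median log2 -0.50), a count of lower genes of 4, 5 and 3 without EV replicate 2, TAZ-CAMTA1 replicate 1 and TAZ-CAMTA1 replicate 3. The sum was 2811, 4409 and 4047 CPM in EV and 2161, 3436 and 2578 in TAZ-CAMTA1, ranges that overlap. Sub-confluent EV had a median on the other side of EV (log2 0.30), with 2 genes higher and 0 lower. Its sums of 5318, 3683 and 4910 CPM overlapped those of EV. Mvd, the decarboxylase that yields isopentenyl pyrophosphate, was at 63.2, 108 and 99.9 CPM in EV, 30.3, 59.3 and 31.3 in TAZ-CAMTA1 and 120, 81.2 and 128 in sub-confluent EV (log2 -1.17 ± 0.27, adjusted p = 0.00318). Tm7sf2, a sterol reductase that overlaps Vps51, fell by 1.29 on the log2 scale. Fabp5, a carrier of fatty acids, fell from 62.4, 89 and 60.4 to 26.6, 24.6 and 15.8 CPM (log2 -1.66 ± 0.19, adjusted p = 1.24e-06), whereas sub-confluent EV rose to 200, 213 and 136 and TAZ4SA had a mean of 492 CPM. Pdk4, the kinase that turns off pyruvate dehydrogenase, fell from 1206, 571 and 1178 to 473, 375 and 360 CPM (log2 -1.29 ± 0.27). Of 23 fatty acid oxidation genes 7 fell and none rose, with 3 lower without EV replicate 1 or TAZ-CAMTA1 replicate 3 and 1 higher without TAZ-CAMTA1 replicate 3.

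Few respiratory chain genes passed. Of 76 nuclear oxidative phosphorylation genes 2 rose and 2 fell, with no faller left without EV replicate 1, EV replicate 3, TAZ-CAMTA1 replicate 2 or TAZ-CAMTA1 replicate 3 and 1 without EV replicate 2, but 4 with DESeq2 and 13 when only the 2 groups entered the fit, and 0 of 15 mitochondrially encoded genes passed edgeR's test (0 at an unadjusted p under 0.05, 0 by DESeq2, and 1 higher without EV replicate 2). Cytosolic ribosomal protein genes had 7 of 82 lower (8.54%, near the 8.98% of all genes), with a median log2 difference of -0.33. The count was 1, 11, 1, 2, 1 and 1 as EV replicates 1, 2 and 3 and TAZ-CAMTA1 replicates 1, 2 and 3 were left out. It was 48 when only the 2 groups entered the fit. The sum over the 82 genes was 65567, 55051 and 61915 CPM in EV and 47757, 51165 and 46462 in TAZ-CAMTA1, ranges that did not overlap. Of all single genes tested, 22.4% were lower in every TAZ-CAMTA1 library than in any EV library. The sum in sub-confluent EV was 61654, 71613 and 74819 CPM, which overlaps EV. Among metallothionein and iron genes 7 of 18 rose and 4 fell. Steap1, a metalloreductase, rose from 6.54, 13.5 and 8.41 to 27.9, 46 and 40.8 CPM (log2 2.02 ± 0.28).

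Of 29 chemokines and secreted cytokines 7 rose and 3 fell, and of 13 prostanoid genes 5 rose and 1 fell, with 6 and 2 lower when only the 2 groups entered the fit. The neutrophil-attracting chemokines Cxcl1 and Cxcl5 rose, Cxcl1 from 0.507, 0.430 and 0.0442 to 5.74, 6.71 and 10 CPM (log2 4.50 ± 0.45, adjusted p = 2.05e-07) and Cxcl5 by 2.95 on the log2 scale. Ptgs2, the inducible cyclooxygenase, rose from 4.39, 15.2 and 4.69 to 40.2, 62 and 72.6 CPM (log2 2.86 ± 0.44), while Ptger4, a receptor for prostaglandin E, fell from between 15.2 and 21.4 to between 6.75 and 7.27 CPM (log2 -1.38 ± 0.21). Cxcl12, a stromal chemokine, fell from 775, 1125 and 906 to 521, 333 and 307 CPM (log2 -1.27 ± 0.28), and stood at 153, 242 and 391 in sub-confluent EV. Of 42 interferon-stimulated genes 4 rose and 6 fell (3 fell without TAZ-CAMTA1 replicate 3). Bst2, tetherin, rose from 11.2, 12.5 and 10.9 to 56.4, 65.5 and 63.6 CPM (log2 2.42 ± 0.24, adjusted p = 1.56e-07), whereas Gbp2 fell from between 18 and 31.7 to between 7.64 and 11.2 CPM (log2 -1.46 ± 0.20). Of 22 MHC class I genes 4 rose and 2 fell, but 2 rose and none fell without EV replicate 1, EV replicate 3, TAZ-CAMTA1 replicate 2 or TAZ-CAMTA1 replicate 3, and 1 fell without TAZ-CAMTA1 replicate 1. Nlrc5, the transactivator of MHC class I genes, rose from at most 0.531 to between 2.67 and 4.23 CPM (log2 3.22 ± 0.38), and H2-K1, which has close paralogs that may share its reads, rose by 1.06.

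Complement genes gave 7 of 19 higher and 1 lower (3, 3, 4 and 4 higher without EV replicate 1, EV replicate 3, TAZ-CAMTA1 replicate 1 and TAZ-CAMTA1 replicate 2, and 2 lower without EV replicate 2). Serping1, the C1 inhibitor, had no count in EV and was at 1.38, 1.21 and 2.43 CPM in TAZ-CAMTA1, at least 12.5-fold higher. Masp1, a protease of the lectin pathway, fell from 100, 68.3 and 102 to 33.9, 24.6 and 23.2 CPM (log2 -1.73 ± 0.23, adjusted p = 7.53e-06).

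Of 11 potassium channel genes 3 fell and none rose (1 rose without TAZ-CAMTA1 replicate 1), and their sum went from 87.98, 87.61 and 89.38 CPM to 52.34, 50.17 and 48.9, with 79.89 to 83.44 in sub-confluent EV. Kcnab1 (chr3:65109384-65378223), a cytoplasmic beta subunit, fell from 48, 40.6 and 46.6 to 14.7, 10.6 and 9.82 CPM (log2 -1.94 ± 0.20, adjusted p = 4.17e-07). Of 29 calcium, sodium, chloride and TRP channel genes 11 rose and 3 fell (1 fell without EV replicate 1). Cacna1a (chr8:84388440-84640246), the pore of P/Q-type calcium channels, was at 11.5, 13 and 15.9 CPM in EV, 20.7, 22.1 and 21.6 in sub-confluent EV and 116, 115 and 109 in TAZ-CAMTA1 (log2 3.07 ± 0.20, adjusted p = 1.65e-09). It was above TAZ4SA (log2 2.00, adjusted p = 4.53e-08) and YAP-TFE3 (2.61, adjusted p = 3.51e-08) as well. Lipid mediator and adhesion G protein-coupled receptors had 4 of 36 higher and 11 lower, with 2 higher without EV replicate 1, EV replicate 3 or TAZ-CAMTA1 replicate 1. Ednra, an endothelin receptor, fell from 45.3, 27.7 and 44.5 to 15.6, 11.6 and 13.9 CPM (log2 -1.52 ± 0.30).

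Of 35 KLF, EGR and nuclear receptor factors 3 rose and 5 fell (3 fell without TAZ-CAMTA1 replicate 2, and 11 when only the 2 groups entered the fit), and of 39 mesenchymal factors 5 rose and 6 fell. Klf4 rose from 14.2, 18.9 and 16.1 to 75.5, 82.6 and 77.4 CPM (log2 2.26 ± 0.17, adjusted p = 7.81e-09), against 23.8, 23.2 and 14.5 in sub-confluent EV, and its paralog Klf2 rose by 1.35. Sox9, the chondrogenic factor, fell from 147, 102 and 135 to 57.1, 43.8 and 47.6 CPM (log2 -1.37 ± 0.24, adjusted p = 0.000187). Bhlhe40, a repressor of the clock, fell from 116, 151 and 147 to 50.6, 44.5 and 45 CPM (log2 -1.56 ± 0.23). Foxf1 (log2 1.20) and Ets1 (0.85) rose and Eya4 fell (-1.51). The subunits of the ATAC and SAGA acetyltransferases, coactivator complexes that modify histones, had 1 of 29 higher (0 without EV replicate 1, EV replicate 3, TAZ-CAMTA1 replicate 2 or TAZ-CAMTA1 replicate 3, and 2 without EV replicate 2 or TAZ-CAMTA1 replicate 1) and 1 lower (3 without EV replicate 2). Atxn7l3, a SAGA deubiquitinase adaptor, fell from between 106 and 121 to between 82.2 and 86.8 CPM (log2 -0.39 ± 0.09, adjusted p = 0.00223).

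Many lists also moved between sub-confluent EV and EV, a comparison that shares the EV libraries. Members rose there in several lists with more rises than falls in TAZ-CAMTA1: 17 of the 40 actomyosin genes (2 fell), 17 of the 48 NRF2 genes (3 fell), 16 of the 30 G1 regulators (2 fell), 12 of the 31 p53 targets (2 fell) and 15 of the 31 heat shock genes. The prostanoid genes had 6 higher and 1 lower, the cadherins 6 and 5, the junction genes 5 and 1, and the other channels 5 and 2. Members mostly fell, where they were called, among Hippo components (2 higher, 6 lower), AP-1 genes (1 and 3), the Wnt pathway (2 and 6), the IGF system (3 and 6), guidance genes (2 and 13), integrins (3 and 5), matrix proteases (4 and 14), complement genes (2 and 7) and interferon-stimulated genes (0 and 12). Nuclear oxidative phosphorylation genes had 20 higher and 1 lower, and fatty acid oxidation genes 6 higher and 1 lower.

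Set directly against TAZ4SA, TAZ-CAMTA1 differed at 7854 genes (54.7%), 26.6% higher and 28.1% lower, and against YAP-TFE3 at 1671 (11.6%), 5.32% higher and 6.32% lower. Among the amino acid genes 21 of 49 were higher than in YAP-TFE3 and none lower, while against TAZ4SA 5 were higher and 21 lower. Among the 72 mitosis genes 12 were higher than in YAP-TFE3 and none lower, and against TAZ4SA 11 were higher and 3 lower. Among single genes Lyz2 was below YAP-TFE3, which had a mean of 160 CPM (log2 -2.89, adjusted p = 6.17e-07), and above TAZ4SA (log2 4.62, adjusted p = 3.87e-09). Ereg was above both, TAZ4SA by log2 3.57 (adjusted p = 2.03e-07) and YAP-TFE3 by 1.40 (adjusted p = 0.00939). Ccn1 differed detectably from neither (log2 -0.21, adjusted p = 0.633, and 0.80, adjusted p = 0.162), while Ankrd1 (-1.37, adjusted p = 0.000748) and Ccn2 (-2.97, adjusted p = 3.21e-06) were lower than in TAZ4SA. These contrasts share the TAZ-CAMTA1 libraries with each other and with the comparison to EV.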

How the data were processed

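RNA sequencing covered 24 NIH 3T3 libraries in 8 groups of 3 (polyA-selected, stranded, 75 bp paired reads). The authors deposited raw read counts per Ensembl gene; their methods name bcbio-nextgen 1.0.8, Hisat2, mm10 and Ensembl release 97. Their methods also name Salmon with tximport for gene-level counts. Which of these routes made the deposited counts, and with what strand setting, is not given in the sources used here. Gene names and coordinates came from GENCODE M21, which matched 37607 of 39017 identifiers, and promoters from RefSeq.

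Genes averaging 5 or more counts were fitted with edgeR 4.0.16 (quasi-likelihood, TMM, R 4.3.3), with 1 coefficient per group over all 24 libraries, called at a Benjamini-Hochberg false discovery rate of 0.05. Errors of log2 differences are standard errors from that fit. In simulated counts with 200 genes changed it recovered 75.0% of those changed by log2 1 and 93.5% by log2 2. It also called 14 and 5 unchanged genes there. Ratios against 1 to 3 EV counts carry exact 95% counting intervals. Libraries held 19981310 to 23923921 counts, and intervals and floors cover counting error only.

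The 61 lists (1800 tested genes) and the members were chosen with earlier results of these data known. Named genes were the 12 largest rises and falls with every TAZ-CAMTA1 library beyond every EV library and a mean of at least 50 counts, up to 2 rises and 2 falls per list, every TAZ/YAP target, and called cell type markers. Of the 241 so chosen, those not described are left out for length. Alternatives were DESeq2 1.42.0, its size factors, other count filters, a fit of the 2 groups alone, a replicate block, sub-confluent EV as control, and each replicate left out. Some items are not reported here.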

Additional observations from a re-analysis of the deposited data

How the results depend on the processing

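Between TAZ-CAMTA1 and EV, 3450 genes passed with DESeq2, 3138 with its size factors, 3133 with no count filter, 2676 with a stricter one and 4396 with only the 2 groups in the fit (1995 of them lower). A 2-fold minimum left 1123, 855 higher and 268 lower. Without single replicates 2010 to 3198 passed, 706 to 1351 of them lower. Against YAP-TFE3 the fit of the 2 groups alone gave 2572 (1337 higher), and leaving out replicates gave 835 to 1549, 357 to 742 higher and 477 to 807 lower. Sub-confluent EV against EV gave 1683 in the fit of the 2 groups alone (889 higher, 794 lower) and 1971 to 3668 without single replicates (1086 to 2109 higher, 851 to 1559 lower). Fewer libraries entered the fits of the 2 groups alone and those without single replicates. The cause of these shifts was not tested.

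With a replicate block 3000 genes passed, 2933 of them among the 3088. The replicate numbers did not pair the libraries: deviations of same-numbered TAZ-CAMTA1 and EV libraries correlated at 0.174, 0.086 and -0.128, and not every library correlated best with its own number. The block changed no direction among named genes.

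Sub-confluent EV as the control gave 3068 genes, 1314 of them shared, and turned the sign of these genes chosen by the naming rule, not all of which are described above. The log2 differences are against sub-confluent EV, and each has the opposite sign against EV: Acta2 -0.56, Angptl2 0.09, Ccn2 -1.57, Col9a3 0.63, Cp 0.40, Crim1 -0.13, Ctns 0.05, Cxcl12 0.56, Dmrtc1c1 2.69, Edil3 0.39, Epha7 0.28, F3 1.05, Fat2 -0.51, Fnip2 0.04, Has2 0.63, Hes6 0.11, Hlf 0.09, Impact 0.30, Itgbl1 0.39, Lyve1 0.92, Me1 -0.07, Mmp2 1.53, Pappa 0.69, Pdgfrb 0.03, Pole -0.78, Psmd3 -0.07, Rbl2 0.28, Rrm2 -0.08, Spry2 0.35, Tgfb2 1.19, Thy1 -0.20, Tk1 -0.79, Tmem268 0.01, Wfdc18 2.01 and Yap1 0.12. Of 225 called named genes, 127 passed in the same direction against sub-confluent EV, 65 kept the direction but did not pass and 33 changed sign. Under every other alternative that could be run for them, 172 passed in the same direction and 53 did not. The stricter filter left 152 of the 225 to test.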

Other observations

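Gene families were also formed from the letters that symbols share before the first digit, with at least 8 tested genes each. The 214 families were ranked by the share called, so that their order rests on these data and the first ones are extremes of many. Not every family near the top is named. The Rassf family of Ras-association scaffolds, some of which bind Hippo kinases, had the largest share of rises, 5 of 8 with 1 faller. Rassf7 rose from a mean of 3.38 ± 0.579 CPM in EV to 32.7 ± 6.34 in TAZ-CAMTA1 (SD, n = 3, log2 3.27 ± 0.27 SE, adjusted p = 1.59e-08, edgeR). Next came the Abca lipid transporters, with 5 of 9 higher and none lower. Abca4 rose from 0.151 ± 0.0781 to 2.36 ± 0.642 CPM (log2 3.94 ± 0.52, adjusted p = 7.48e-06). The Ptpn tyrosine phosphatases had 6 of 12 higher and 1 lower, and the nucleoporins (Nup) 8 of 18 higher and none lower.

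On the other side stood the Nat stem, which joins N-acetyltransferases of different kinds, with 5 of 10 lower and none higher. Nat8f4 fell from 5.97 ± 2.55 to 2.07 ± 0.381 CPM (log2 -1.52 ± 0.33, adjusted p = 0.00182). The clustered beta protocadherins (Pcdhb), neural adhesion proteins, had 9 of 19 lower and none higher. Pcdhb9 fell from 9.37 ± 0.697 to 4.19 ± 0.884 CPM (log2 -1.16 ± 0.20, adjusted p = 0.000171). Both families hold near-identical copies whose reads the counting could split. Lysine demethylases (Kdm) had 6 of 17 lower and 1 higher, and Kdm5b fell from 243 ± 43 to 131 ± 12.8 CPM (log2 -0.89 ± 0.19, adjusted p = 0.00172).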
